A study of Mus musculus with 2 samples.

Results

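The tumour necrosis factor (TNF) superfamily joins cytokines that are mostly made as membrane proteins to a matching superfamily of receptors. Its carriers among heart leukocytes are described here. Members were the genes whose symbol starts with Tnfsf or Tnfrsf, together with Tnf, Lta, Ltb, Ltbr, Fas, Fasl, Cd40, Cd40lg, Cd27 and Cd70. The rule found 42 genes of the 31192 in the matrix: 18 ligands, 23 receptors and 1 antisense RNA. Of the receptors, 5 have a death domain, 4 are counted as decoys and 14 are others. At least 50 counts over all kept cells were found for 41 members, and Tnfrsf11b, which encodes osteoprotegerin, stayed below that. Levels are given for the 28 members that reached 20 CPM, the counts of a gene per 1000000 counts of the class, and were above 0 in at least 5 cells in some class of cells: 11 ligands, 16 receptors and the antisense RNA. In the other 14 members the highest level in any class lay between 0.524 and 17.9 CPM.

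The study profiled heart cells of mice after transverse aortic constriction, surgery that makes the left ventricle pump against a narrowed aorta. All animals carried Cdh5-CreERT2, a Cre recombinase driven by the endothelial cadherin promoter and switched on by tamoxifen, and the REFLEX reporter, in which GFP labels cells that interact. All had received tamoxifen. Cells were sorted by CD45, the surface protein of leukocytes, and by GFP, and the 4 fractions, with each marker present or absent, were pooled and sequenced as 1 transcriptome library. The number, age and sex of the animals and the time after the operation are not given in the sources used here. No source used here ties a sample tag to a sorted fraction, and no library of unoperated hearts was analysed, so neither GFP nor the operation was compared. Cells of 1 library are not replicates, and no p-value is given. Intervals in parentheses are exact 95% intervals that cover counting error only, and they are too narrow if the deposited counts are reads and not molecules, which is not stated.

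Ligands of this superfamily act as clusters of like subunits, on the cell surface or after they are cut off by proteases such as ADAM17. Receptors with a death domain recruit TRADD or FADD and can start caspase-8 dependent cell death, whereas the others recruit TRAF proteins and turn on NF-kappaB. In the heart, TNF is known from infarction, overload and myocarditis, and macrophages, monocytes and neutrophils are among its known sources. Many of the other members are costimulatory pairs between antigen-presenting cells and T cells, such as CD40 with CD40 ligand and OX40 with OX40 ligand.

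Tnf, Lta and Ltb are neighbours on mouse chromosome 17 with no coding gene between them, and their levels differed between classes. Their promoters are therefore shown, 250 bases before to 50 bases after the annotated start, 5′ to 3′ on the gene's strand. The sequences are from RefSeq on build GRCm38.p6, whereas the submitters' processing notes name GRCm39. Capitals mark the matches found. The positions are chr17:35201958-35202257 on the minus strand for Tnf, chr17:35205302-35205601 on the minus strand for Lta and chr17:35194257-35194556 on the plus strand for Ltb.
Tnf: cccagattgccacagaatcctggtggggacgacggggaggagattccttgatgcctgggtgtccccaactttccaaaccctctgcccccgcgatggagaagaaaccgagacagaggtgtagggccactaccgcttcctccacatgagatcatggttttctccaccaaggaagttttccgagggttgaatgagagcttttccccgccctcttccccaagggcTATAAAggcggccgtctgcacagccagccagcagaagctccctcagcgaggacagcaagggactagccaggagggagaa
Lta: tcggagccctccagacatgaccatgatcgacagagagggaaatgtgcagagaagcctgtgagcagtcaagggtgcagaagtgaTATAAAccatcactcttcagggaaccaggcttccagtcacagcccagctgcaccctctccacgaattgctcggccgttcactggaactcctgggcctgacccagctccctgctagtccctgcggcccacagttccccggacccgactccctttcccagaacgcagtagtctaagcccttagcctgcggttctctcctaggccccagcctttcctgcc
Ltb: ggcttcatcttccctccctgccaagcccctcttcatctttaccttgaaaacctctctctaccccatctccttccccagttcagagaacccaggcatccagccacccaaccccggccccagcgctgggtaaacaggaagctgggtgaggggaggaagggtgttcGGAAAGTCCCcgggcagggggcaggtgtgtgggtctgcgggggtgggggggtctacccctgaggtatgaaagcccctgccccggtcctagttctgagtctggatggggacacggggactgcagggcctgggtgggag

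In the Tnf and Lta promoters the capitals are a TATA box, searched as TATAAA, and in the Ltb promoter they are a kappaB motif on the minus strand, searched as GGG, any 2 bases and TTTCC. Both strands were searched in all 32851 mouse promoters of the table, of which 13.6% held the TATA box motif, 1.63% the kappaB motif and 7.81% the AP-1 motif TGANTCA. The AP-1 letters read the same on both strands, and matches of different motifs were counted whether or not they overlapped. Promoters were found for 31 of the 42 members, 35 promoters in all. The kappaB motif was in promoters of 3 members (Ltb, Tnfrsf9 and Tnfrsf25). The TATA box motif was in 5 (Tnf, Lta, Tnfsf11, Tnfsf18 and Tnfrsf23), of which Tnfsf11 and Tnfrsf23 matched on the opposite strand only. The AP-1 motif was in 6 (Fas, Tnfrsf8, Tnfrsf9, Tnfsf13, Tnfsf13b and Tnfsf14). A match is a description of letters in this window, and a motif not found says nothing about the factor.

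The matrix held 878 cells with 28406.6 to 706332 counts each (median 77171), of which 857 were used and 21, above the limit of 25% mitochondrial counts, were not. Members and the genes of their pathway were kept out of the clustering. Clusters were named after marker genes, which gave 265 neutrophil-like, 173 monocyte-like, 82 macrophage-like, 32 conventional dendritic-like, 161 B cell-like, 102 T cell-like and 27 NK cell-like cells. A cluster of 15 cells led by the interferon-induced genes Ifit1, Ifit3 and Rsad2 stayed unnamed. Although CD45-negative cells were sorted into the pool, at least 3 endothelial markers at 50 CPM were found in 1 of the 878 cells, fibroblast markers in 6, cardiomyocyte markers in 14 and mural cell markers in none. What endothelial cells, fibroblasts and cardiomyocytes express of the superfamily was therefore not described. Of the macrophage-like cells, 27 formed a group of their own in a finer clustering, led by Plcb1 and Fnip2, with a median mitochondrial share of 7.99% and 691 CPM of macrophage markers, against 7416 CPM in the 56 cells led by Pf4 and C1qa. Named on its own by the same marker rule, this group of 27 took the monocyte name, with 3 monocyte markers, and in that clustering 56 cells were macrophage-like. Of the 56 cells of the Pf4 group, 55 belonged to the macrophage-like class and 1 to the monocyte-like class, and values of the Pf4 group include that cell. The macrophage-like class thus mixes these groups, and the 28 members kept their leading classes in the finer clustering, where the 27 cells counted as monocyte-like. The 11 cardiomyocyte markers summed to 202.9 CPM in neutrophil-like cells, against 23.2 to 39.5 CPM in the other 6 named classes, and 29 of the 46 kept cells that the authors named doublet were neutrophil-like. Without the cells named doublet, each of the 28 members kept its leading class and its side of a ratio of 2, except Tnfrsf1a, whose ratio then passed 2. The 8 fibroblast markers summed to 325.8 CPM in neutrophil-like cells, against 13.2 to 157 CPM in the other 6 named classes. The part of RNA of cardiomyocytes or fibroblasts in the neutrophil-like values was not tested.

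**Figure D1:**
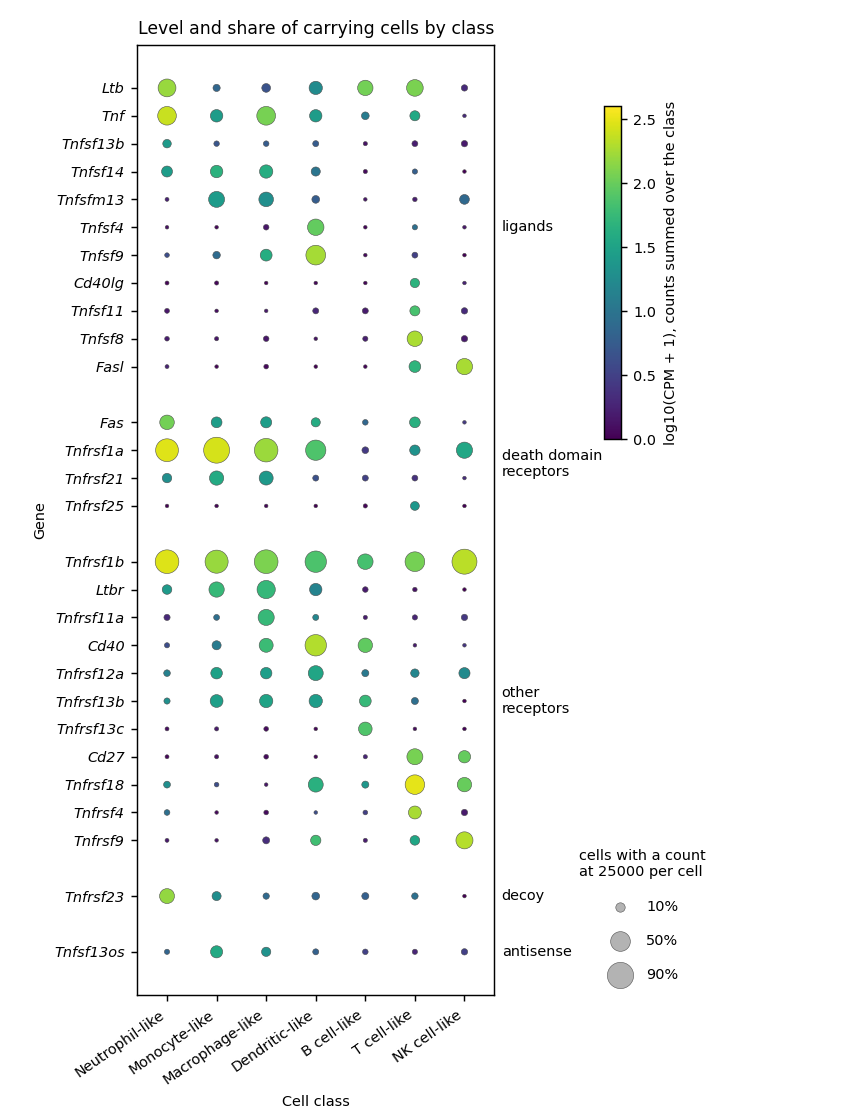
Level and carriers of the 28 members in the 7 named classes, grouped by role (ligands, death domain receptors, other receptors, decoy, antisense). Colour is log10(CPM + 1) of counts summed over a class, and the area of a point grows with the share of cells with a count at 25000 counts per cell. Tnfrsf1b is found at 20 CPM or more in all 7 classes, whereas Tnfrsf13c stands out in B cell-like cells and Cd40lg, Tnfsf8, Tnfsf11 and Tnfrsf25 in T cell-like cells.

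Among the 28 members, 7 were highest in neutrophil-like cells, 7 in T cell-like, 5 in monocyte-like, 4 in conventional dendritic-like, 2 in B cell-like, 2 in NK cell-like and 1 in macrophage-like cells. In 24 of the 28 the interval of the leading class lay above that of the second class, and in 4 (Cd27, Ltbr, Tnfrsf12a and Tnfsf14) the intervals overlapped. Levels are not scaled to gene length, so a gene is compared across classes and not with another gene. Sums over several members weigh the genes with many counts most. Shares of cells with a count are given after each cell was thinned to 25000 counts, and numbers of cells are of unthinned counts.

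Summed over the 18 ligands, T cell-like cells held 559 CPM (544 to 573), against 247 CPM in all other cells, and neutrophil-like cells held 454 CPM (444 to 463), against 240.5 CPM in all other cells. Conventional dendritic-like cells followed with 363, macrophage-like cells with 237, NK cell-like cells with 199, B cell-like cells with 138 and monocyte-like cells with 132 CPM. The ligand sum thus differed 4.24-fold between the highest and the lowest class. In NK cell-like cells Fasl alone made up 90.7% of the ligand counts, and Ltb made up 79.5% of those of B cell-like cells. Receptors summed to 984 CPM in neutrophil-like cells (969.6 to 998), against 626 CPM in all other cells. T cell-like cells had 899, NK cell-like 671, monocyte-like 649, conventional dendritic-like 597, macrophage-like 574 and B cell-like cells 360.0 CPM. B cell-like cells were lowest in receptors and next to lowest in ligands. In cells named A951 ligands summed to 388 CPM in T cell-like (364 to 413) and 403 CPM in neutrophil-like cells (389 to 417), with overlapping intervals. A single cell held 32.6% of the ligand counts of the T cell-like cells named A951. In cells named A965 T cell-like cells stood above neutrophil-like cells in receptors, with 838 CPM (809.7 to 866) against 783.6 CPM (747 to 822). These intervals overlapped too. The tag with most counts was the one in the name in 331 of 331 cells named A951 but in 17 of 247 named A965. Receptors summed to 944 CPM in the Plcb1 group, against 533.5 CPM in the Pf4 group.

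**Figure D2:**
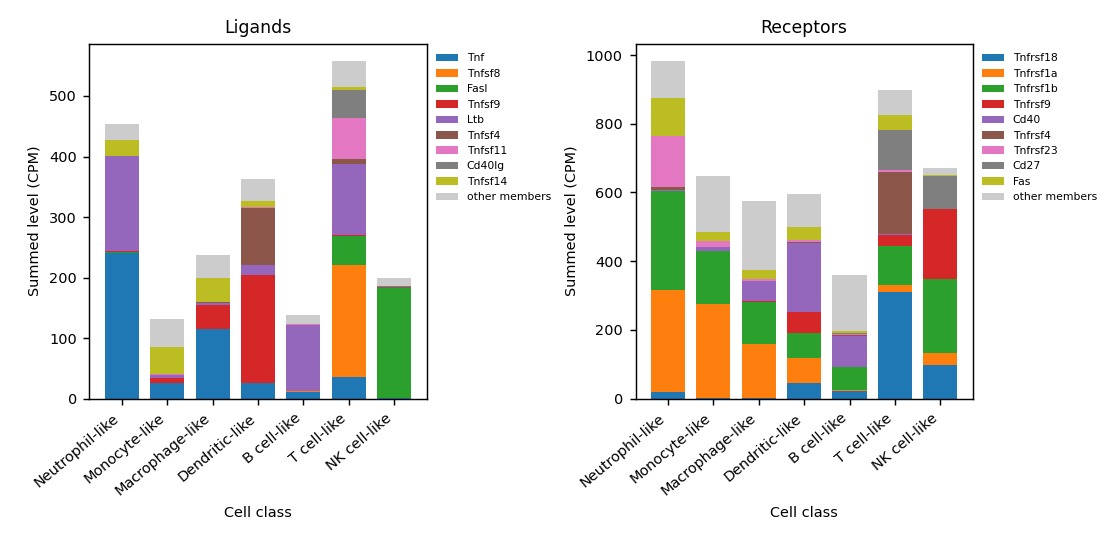
Summed level of the 18 ligands (left) and the 23 receptors (right) in each named class, in CPM, split by the genes with the highest level in any class, with the other members in grey. Tnf and Ltb fill most of the neutrophil-like ligand bar, several ligands share the T cell-like bar, and Fasl fills the NK cell-like bar.

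Tnf, the founding cytokine of the family, stood at 240.3 CPM in neutrophil-like cells (233 to 248), 5.43 times its level in all other cells (5.19 to 5.67). It had 114 CPM in macrophage-like, 34.8 in T cell-like, 25.9 in monocyte-like, 25.8 in conventional dendritic-like, 11.1 in B cell-like and 1.02 in NK cell-like cells. At 25000 counts per cell the carriers of Tnf were 44.5% of neutrophil-like cells (38.5 to 50.7) and 45.1% of macrophage-like cells, so the share of carriers did not separate the 2 classes that led by level. The lowest share was that of NK cell-like cells, where 0 of 27 cells had a count at that depth (exact upper bound 12.8%). The share that free RNA adds was not measured. The highest neutrophil-like cell had 3429 CPM and held 4.60% of the class counts, whereas a single macrophage-like cell held 30% of the macrophage-like Tnf counts. Neutrophil-like cells led in Tnf in cells named A951, at 239.9 CPM against 70.2 CPM in macrophage-like cells so named, but in cells named A965 they had 216 CPM, against 278 CPM in 18 macrophage-like cells, where 1 cell held 80.8% of the counts. Macrophage markers summed to 59.5 CPM in the 127 neutrophil-like cells with a Tnf count, against 72.3 CPM in the 138 without one.

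Ltb, the membrane partner of lymphotoxin alpha, had its highest level, 156 CPM (151 to 162), in neutrophil-like cells, with T cell-like cells at 117 and B cell-like cells at 110.0 CPM. Conventional dendritic-like cells had 16.6, monocyte-like 6.23, macrophage-like 3.63 and NK cell-like cells 1.02 CPM. The gene thus had carriers in 3 classes, with shares at equal depth of 40.8% among neutrophil-like, 35.3% among T cell-like and 29.8% among B cell-like cells, against 3.70% of NK cell-like cells. Ltb is best known from lymphocytes, so lymphocyte markers were read in its neutrophil-like carriers. The 11 B cell markers summed to 142 CPM in the 119 neutrophil-like cells with Ltb and to 129 CPM in the 146 without it, and the 13 T cell markers to 24.4 and 32.8 CPM. None of these 265 cells had 3 B cell markers or 3 T cell markers at 50 CPM. Lta, which encodes lymphotoxin alpha, was not found with Ltb in neutrophil-like cells: it had 0.0547 CPM there, against 15.1 CPM in T cell-like cells and 12.8 CPM among B cell-like cells.

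Tnfsf14 encodes LIGHT, a ligand of the lymphotoxin beta receptor and of HVEM. It had 44.9 CPM in monocyte-like cells (42.6 to 47.3), 40.35 in macrophage-like (37.3 to 43.5), 25.6 in neutrophil-like, 9.28 in conventional dendritic-like and 5.003 in T cell-like cells, and at most 0.175 CPM in B cell-like and NK cell-like cells. The monocyte-like and macrophage-like intervals overlapped, and a single cell held 29% of the macrophage-like counts. The Plcb1 group of macrophage-like cells had 95.1 CPM of Tnfsf14, against 36.7 CPM in the Pf4 group. Tnfsf13b encodes BAFF, the B cell survival factor, and stood at 24.4 CPM in neutrophil-like cells (22.2 to 26.8), 8.03 times its level in all other cells (6.87 to 9.42). The other classes had between 0.327 and 4.56 CPM, and at equal depth 7.92% of neutrophil-like cells carried it.

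The genes of TWEAK (Tnfsf12), APRIL (Tnfsf13) and their read-through transcript Tnfsfm13 overlap on chromosome 11, with Tnfsf13os on the opposite strand. Reads of this locus can be split between them, and of the Tnfsfm13 values above 0, 78.4% were not whole numbers. The strand setting of the counting is not stated, so the antisense gene cannot be told apart with certainty. Summed, Tnfsf12, Tnfsf13 and Tnfsfm13 had 39.99 CPM in monocyte-like cells (37.8 to 42.3), 30.8 in macrophage-like (28.2 to 33.6), 13.3 in NK cell-like and 8.05 in conventional dendritic-like cells, and 0.79 to 1.42 CPM in B cell-like, T cell-like and neutrophil-like cells. Tnfsf13os followed the same order at the top, with 36.1 CPM in monocyte-like cells, 20.3 CPM in macrophage-like cells, and 5.92 CPM or less in the others. Mononuclear phagocytes were thus the main carriers of the locus.

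Conventional dendritic-like cells led in 2 costimulatory ligands. Tnfsf9, 4-1BB ligand, stood at 179 CPM (170.0 to 188), 16.4 times its level in all other cells (15.2 to 17.8), with 40.05 CPM in macrophage-like cells and 6.92 CPM or less in the other classes. Tnfsf4, OX40 ligand, stood at 94.3 CPM (88.1 to 101), 76.6 times all other cells (62.7 to 93.8). The next class was T cell-like at 7.79 CPM, where a single cell held 93% of the counts. Of the 32 conventional dendritic-like cells 15 had Tnfsf4 and 18 had Tnfsf9. Tnfsf9 was found in 11 of the 15 cells with Tnfsf4, against 7 of the 17 without it. The highest cell held 32.0% of the Tnfsf4 counts of the class and 14.8% of the Tnfsf9 counts.

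T cell-like cells led in 3 ligands. Tnfsf8, CD30 ligand, stood at 185 CPM (177 to 194) and no other class exceeded 0.663 CPM. Tnfsf11, RANKL, stood at 68.4 CPM (63.5 to 73.6), with 1.02 CPM or less elsewhere, and Cd40lg at 45.5 CPM (41.5 to 49.8), with 0.766 CPM or less elsewhere. These were restricted carriers within the class too: at equal depth 30.4% of T cell-like cells had a count of Tnfsf8, 11.8% of Tnfsf11 and 9.80% of Cd40lg. Of the 13 cells with Tnfsf11, 8 also had Cd40lg, against 7 of the 89 cells without it. Cd4 was found in 9 of the 13 and Cd8b1 in 1, against 36 and 38 of the 89.

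Fasl, the ligand of the death receptor Fas, reached 181 CPM (162 to 200) in NK cell-like cells, its leading class, with T cell-like cells at 48.5 CPM and every other named class at 0.766 CPM or less. It was 34.0 times as high in NK cell-like cells as in all other cells (29.6 to 39.0). A count was found in 11 of 27 NK cell-like and 21 of 102 T cell-like cells, and a single NK cell-like cell held 32.8% of the class counts. Of the T cell-like carriers 12 had Cd4 and 5 had Cd8b1. Ligands that did not reach 20 CPM in a named class were Lta, Tnfsf10, which encodes TRAIL, Tnfsf15, Tnfsf18, Cd70, Tnfsf12 and Tnfsf13. Tnfsf10 had 17.9 CPM in T cell-like cells and at most 1.95 CPM in the other named classes, beside 46.5 CPM in the 15 unnamed interferon cells. Cd70 and Tnfsf18 were highest in conventional dendritic-like cells, at 11.9 and 9.06 CPM.

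**Figure D3:**
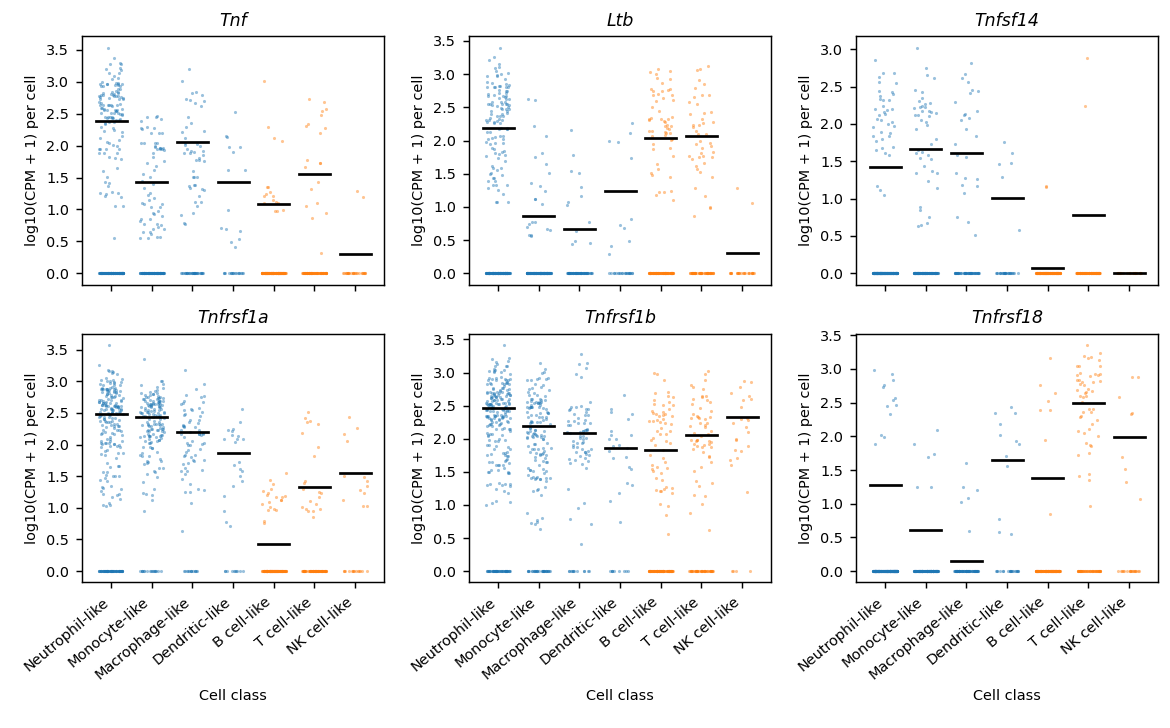
Tnf, Ltb, Tnfsf14, Tnfrsf1a, Tnfrsf1b and Tnfrsf18 in every cell of the 7 named classes. Each point is a cell, as log10(CPM + 1) of its own counts, blue for myeloid and orange for lymphoid classes, and the bar is the level of counts summed over the class. Many cells lie at 0 for each gene, so a class level reflects both how many cells carry a gene and how much they hold.

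Tnfrsf1a encodes TNF receptor 1, the death domain receptor of TNF. It was found at 297.9 CPM in neutrophil-like (290.1 to 306), 272 in monocyte-like (266 to 278), 159.5 in macrophage-like, 73.8 in conventional dendritic-like, 34.7 in NK cell-like, 20.4 in T cell-like cells, with B cell-like cells last at 1.70. Myeloid classes thus all lay above the lymphoid ones. At equal depth 87.9% of monocyte-like and 67.5% of neutrophil-like cells had a count, so monocyte-like cells led by share and neutrophil-like cells by level. In cells named A951 and A965 the neutrophil-like level was the lower of the 2, with 251 against 297 CPM in monocyte-like cells and 249 against 265 CPM. In cells named A952 and A953 the neutrophil-like level was the higher, with 360.5 against 247 CPM and 604 against 251 CPM. Over all cells their ratio to all other cells was 1.93 (1.87 to 1.99).

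Tnfrsf1b, TNF receptor 2, which has no death domain, was the member with the widest spread over classes. It had 288.5 CPM in neutrophil-like (281 to 296), 215 in NK cell-like (195 to 236), 156 in monocyte-like, 122 in macrophage-like, 114 in T cell-like, 72.0 in conventional dendritic-like and 66.6 in B cell-like cells. The lowest share of cells with a count at equal depth was 30.4%, in B cell-like cells, and the highest 81.5%, in NK cell-like cells. The neighbouring macrophage-like and T cell-like levels had overlapping intervals, as had the conventional dendritic-like and B cell-like levels. The 27 Plcb1 cells had 396 CPM, against 92.5 CPM in the Pf4 group, so the macrophage-like value is a mixture. In cells named A965 macrophage-like cells led with 253 CPM, against 239 CPM in NK cell-like and 232 CPM in neutrophil-like cells. Of the 127 neutrophil-like cells with Tnf, 92 had Tnfrsf1a and 104 had Tnfrsf1b, against 103 and 109 of the 138 cells without Tnf.

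Fas, the receptor of Fas ligand, stood at 112 CPM in neutrophil-like cells (107 to 116), 4.34 times all other cells (4.08 to 4.61). T cell-like cells had 42.4, conventional dendritic-like 37.5, monocyte-like 26.2, macrophage-like 26.1, B cell-like 6.29 and NK cell-like cells 1.79 CPM. The cardiomyocyte markers summed to 299 CPM in the 84 neutrophil-like cells with Fas and to 154 CPM in the 181 without it, and their part in the Fas level was not tested. In NK cell-like cells, the class richest in Fasl, Fas was thus at its lowest. Tnfrsf21, which encodes DR6, had 36.7 CPM in monocyte-like (34.5 to 38.9), 23.8 in macrophage-like and 18.4 in neutrophil-like cells and 3.37 CPM or less in the others. Tnfrsf25, which encodes DR3, the receptor of TL1A, had 22.9 CPM in T cell-like cells (20.1 to 26.0), with 0.0946 CPM or less in the other classes. It was found in 14 of 102 T cell-like cells, 1 of which held 32.8% of the counts. Tnfrsf10b, the TRAIL receptor, stayed at 10.1 CPM in both B cell-like and T cell-like cells.

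Ltbr, the receptor of lymphotoxin and LIGHT, was a myeloid gene in these cells. It had 54.0 CPM in monocyte-like (51.4 to 56.7), 52.8 in macrophage-like (49.3 to 56.4), 24.8 in neutrophil-like and 13.7 in conventional dendritic-like cells, and 0.524 CPM or less in B cell-like, T cell-like and NK cell-like cells. The monocyte-like and macrophage-like levels had overlapping intervals. The Plcb1 group had 169 CPM of Ltbr, with a single cell at 26.1% of its counts, against 39.5 CPM in the Pf4 group. Neutrophil-like cells were the only named class with both Ltb and Ltbr above 20 CPM, and the lymphoid classes with Ltb were at the bottom for Ltbr.

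Cd40, the receptor through which antigen-presenting cells take up T cell help, was highest in conventional dendritic-like cells at 199 CPM (190.0 to 208). B cell-like cells had 90.7 CPM (85.3 to 96.4) and macrophage-like cells 58.0 CPM, and monocyte-like cells had 10.7 CPM. Neutrophil-like, NK cell-like and T cell-like cells had 3.01, 1.53 and 0.58 CPM. A count at equal depth was found in 59.4% of conventional dendritic-like cells (40.6 to 76.3) and, less often, in B cell-like cells (26.1%), against 0 of 102 T cell-like cells (exact upper bound 3.55%). The 27 Plcb1 cells had 0.602 CPM of Cd40, against 64.0 CPM in the Pf4 group, so the macrophage-like level of Cd40 came from the Pf4 group.

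Tnfrsf11a encodes RANK, the receptor of RANKL, and was the only one of the 28 members to lead in macrophage-like cells. It stood at 54.1 CPM there (50.6 to 57.8), 10.04 times all other cells (8.96 to 11.3), with 15.1 CPM in conventional dendritic-like and 7.62 CPM in monocyte-like cells and 1.62 CPM or less in the others. The Plcb1 group had 40.3 CPM of Tnfrsf11a, of which 1 cell held 76.1%, against 54.4 CPM in the Pf4 group, where 42.9% of cells had a count at equal depth. Tnfrsf12a, Fn14, the receptor of TWEAK, had 33.1 CPM in conventional dendritic-like (29.5 to 37.1), 29.8 in monocyte-like cells, followed by macrophage-like cells at 26.9. The other classes lay between 10.2 and 16.3 CPM, and the ratio to all other cells in the leading class was 1.59 (1.404 to 1.80).

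Other members also differed between the Plcb1 and Pf4 groups by over 1.5 times. Tnfrsf1a had 232 CPM in the Plcb1 group, against 151 CPM in the Pf4 group, Tnfsf9 had 65.0 CPM, against 36.4 CPM, and Tnfrsf12a had 59.6 CPM, against 27.4 CPM. Tnfrsf13b and Tnfsf13os each had 1.204 CPM in the Plcb1 group, against 33.5 and 22.0 CPM in the Pf4 group. Fas had 13.8 CPM, against 26.99 CPM, and Tnfrsf21 had 9.03 CPM, against 24.9 CPM. The Plcb1 cells were thus higher in both TNF receptors, Ltbr and Tnfrsf12a and lower in Cd40, Tnfrsf13b and Tnfrsf21 by these values. Their median was 55481 counts per cell, against 257310 in the Pf4 group, and the part of this gap in these values was not tested.

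The receptors of BAFF and APRIL divided between B cells and a wider set. Tnfrsf13c, the BAFF receptor, had 75.7 CPM in B cell-like cells (70.7 to 80.9), 247 times all other cells (170.3 to 381), and no other class exceeded 0.502 CPM. Tnfrsf13b, which encodes TACI, had 53.7 CPM in B cell-like (49.5 to 58.1), 31.0 in macrophage-like, 27.6 in monocyte-like, 26.4 in conventional dendritic-like, 18.8 in neutrophil-like, 7.70 in T cell-like and 0 in NK cell-like cells. Its B cell-like level was 2.21 times all other cells (2.02 to 2.42), and without the cell with most counts the ratio no longer reached 2. In neutrophil-like cells a single cell held 52% of the Tnfrsf13b counts.

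T cell-like and NK cell-like cells carried 4 costimulatory receptors. Tnfrsf18, GITR, stood at 309 CPM in T cell-like cells (299 to 320), 21.3 times all other cells (19.999 to 22.8), with 98.0 CPM in NK cell-like, 44.1 in conventional dendritic-like, 22.7 in B cell-like and 18.3 in neutrophil-like cells. It was found in 49.0% of T cell-like cells at equal depth (39.0 to 59.1), against 0 of 82 macrophage-like cells (exact upper bound 4.40%). Tnfrsf4, OX40, stood at 180.3 CPM in T cell-like cells (172 to 189), with 7.64 CPM in neutrophil-like and 3.09 CPM or less in the other classes, but a single T cell-like cell held 41.0% of its counts. Cd27, the receptor of CD70, had 116 CPM in T cell-like (109 to 123) and 95.9 CPM in NK cell-like cells (82.7 to 111), with overlapping intervals, and 0.873 CPM or less elsewhere.

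Tnfrsf9, 4-1BB, led in NK cell-like cells instead, at 204 CPM (184 to 225). It had 63.2 CPM in conventional dendritic-like cells, where a single cell held 79% of the counts, and 33.3 CPM in T cell-like cells. Of the 27 NK cell-like cells 10 had Tnfrsf9 and 11 had Fasl, and 3 had both. Among cells named A965, which hold 16 of the NK cell-like cells, Tnfrsf9 had 154 CPM in NK cell-like cells and led in conventional dendritic-like cells at 188 CPM, where 1 cell held 82.0% of the counts. Among cells named A951, where too few NK cell-like cells were left to compare, it led in T cell-like cells at 17.8 CPM. NK cell markers summed to 840.2 CPM in the 6 conventional dendritic-like cells with Tnfrsf9, against 619 CPM in the 26 without it, and to 715.5 CPM in the 12 with Tnfrsf18, against 634 CPM in the 20 without it. Klrd1, one of these markers, was among the leading genes of the conventional dendritic-like cluster itself, and the markers Ncr1 and Prf1 had no count there. T cell markers summed to 2021 CPM in the 5 NK cell-like cells with Cd27, against 1348 CPM in the 22 without it, and to 1855 CPM in the 9 with Tnfrsf18, against 1290 CPM in the 18 without it. The part of T cell and NK cell RNA in these levels was not tested.

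Decoy receptors bind ligands without passing on a signal. Tnfrsf23, a mouse TRAIL decoy receptor, was the one decoy above 20 CPM. It stood at 149 CPM in neutrophil-like cells (143 to 154), 12.4 times all other cells (11.5 to 13.3), with 17.6 CPM in monocyte-like cells and 7.84 CPM or less in the others. At equal depth 27.9% of neutrophil-like cells had a count, against 0 of 27 NK cell-like cells (exact upper bound 12.8%), and the highest cell held 8.29% of the counts. Cardiomyocyte markers summed to 207 CPM in the 84 neutrophil-like cells with Tnfrsf23 and to 201 CPM in the 181 without it. Its neighbours on chromosome 7, Tnfrsf22 and Tnfrsf26, lay lower, with 12.8 and 7.54 CPM in neutrophil-like cells. Of the 31 neutrophil-like cells with Tnfrsf22, 27 also had Tnfrsf23, against 57 of the 234 without it. Tnfrsf22 and Tnfrsf23 are closely related copies whose reads the counting may split: 26.6% of the Tnfrsf23 values above 0 were not whole numbers.

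Members were then counted by class, with a ratio to all other cells of 2 or more after 1 CPM was added to both sides. In T cell-like cells 16 of the 41 members tested were higher by this rule (39.0%), against 14.6% of all 18243 genes with at least 50 counts, and 18 were lower, against 18.2% of all genes. In neutrophil-like cells 8 were higher, against 8.62% of all genes: Tnfrsf23, Tnfrsf22, Tnfsf13b, Tnf, Tnfrsf8, Fas, Ltb and Tnfrsf1b. Monocyte-like cells had 7 higher, against 4.50% of all genes, and conventional dendritic-like cells had 7, against 6.89%. B cell-like cells had 6 (16.9% of all genes), NK cell-like cells 5 (16.1%) and macrophage-like cells 2 (8.62%), the last 2 being Tnfrsf11a and Tnfsf12. As shares of the 41 members these counts are 14.6%, 12.2% and 4.88%, below the share of all genes in each of these classes.

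Lower members were more frequent than lower genes at large. In NK cell-like cells 31 of 41 members were lower, against 28.4% of all genes, and in B cell-like cells 29, against 17.5%. Conventional dendritic-like cells had 25 (22.6% of all genes), monocyte-like cells 23 (16.1%), neutrophil-like cells 22 (32.6%) and macrophage-like cells 19 (13.4%). The median log2 ratio over the members was negative in all 7 classes, from -2.53 in B cell-like to -0.60 in T cell-like cells, where the medians of all genes were 0.02 and -0.02. A gene carried by 1 class counts as lower in the other 6, so these counts show how uneven the members' levels were and are no sum of separate results.

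A list of 48 genes of TNF signalling, shedding and Tnf mRNA control was read beside the members. By the same rule 4 of the 48 were higher in neutrophil-like cells and 13 lower, 8.33% and 27.1% of the list, against 8.62% and 32.6% of all genes. The counts of higher and lower genes were 2 and 4 in monocyte-like, 7 and 2 in macrophage-like, 3 and 7 in conventional dendritic-like, 7 and 9 in B cell-like, 4 and 10 in T cell-like, and 7 and 19 in NK cell-like cells. As shares of the list the higher genes were 4.17% in monocyte-like cells, against 4.50% of all genes, 6.25% in conventional dendritic-like cells, against 6.89%, and 8.33% in T cell-like cells, against 14.6%. They were 14.6% in macrophage-like, B cell-like and NK cell-like cells, against 8.62%, 16.9% and 16.1% of all genes. The share of higher genes was thus near or below that of all genes in every named class but the macrophage-like. Lower genes were 8.33% of the list in monocyte-like, 4.17% in macrophage-like and 14.6% in conventional dendritic-like cells, against 16.1%, 13.4% and 22.6% of all genes. They were 18.75% in B cell-like, 20.8% in T cell-like and 39.6% in NK cell-like cells, against 17.5%, 18.2% and 28.4% of all genes. The list was more even over the classes than the members, with medians between -0.49 and 0.06 on the log2 scale.

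Higher genes of that list had several roles. Among adaptors in macrophage-like cells Ripk3 stood at 48.2 CPM, 3.22 times all other cells, and Traf3 at 66.3 CPM, 3.02 times, and Fadd was 3.68 times as high at 8.48 CPM. Adam17, which encodes the protease that sheds TNF and its receptors, stood at 105 CPM in macrophage-like cells, 2.51 times all other cells (2.36 to 2.65), and the convertase gene Furin at 54.4 CPM, 2.41 times. The adaptor gene Traf1 stood at 513 CPM in conventional dendritic-like cells, 4.79 times all other cells (4.62 to 4.96), beside the caspase-8 inhibitor gene Cflar at 173 CPM, 2.298 times. Ikbkb, a kinase of the NF-kappaB pathway, was 2.48 times as high in monocyte-like cells as in all other cells (2.39 to 2.58). Tnfaip3 encodes A20, a brake on TNF signalling, and was 2.06 times as high in neutrophil-like cells, 2.98 times in T cell-like cells and 2.52 times in NK cell-like cells, each against all other cells. In B cell-like cells Traf5 was 7.67 times (6.92 to 8.50), the linear ubiquitin protease gene Otulin 4.47 times and Zfp36l1, whose product destabilises AU-rich mRNAs, 4.21 times as high as in all other cells. Its relative Zfp36l2 was 3.56 times as high in NK cell-like cells.

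Classes were uneven inside as well, and 3 pairs of clusters of the same class were set against each other, chosen after their values were seen. The 104 neutrophil-like cells with Il23a and Icam1 among their leading genes were set against the 161 with Retnlg and Ngp, genes of freshly released neutrophils. Of the 41 members 10 were higher by 2 times or more, against 17.2% of all genes, and 3 were lower, against 8.07%. Tnf stood at 403 CPM in the Il23a cluster (388 to 419), against 147 CPM in the Retnlg cluster (139.8 to 154), a ratio of 2.75 (2.59 to 2.92). Tnfrsf23 stood at 264 CPM, against 82.3 CPM (ratio 3.21), and its neighbour Tnfrsf22 at 26.8 CPM, against 4.74 CPM (ratio 5.65). A single cell held 49.3% of the Tnfrsf22 counts in the Il23a cluster, and another held 63.6% of those in the Retnlg cluster. Tnfrsf1a and Tnfsf13b lay the other way, with 233 CPM, against 335 CPM, and 13.2 CPM, against 30.8 CPM. Ligands summed to 665 CPM in the Il23a cluster and to 332 CPM in the Retnlg cluster. Tnfrsf13b had 50.7 CPM, against 0.431 CPM, but its carriers were few, with a count at equal depth in 5.77% of the Il23a cluster. In the 11 neutrophil-like cells with Tnfrsf13b macrophage markers summed to 200.3 CPM, against 57.7 CPM in the 254 without it. For 5 of the 10 higher members (Fasl, Cd40, Tnfsf13os, Tnfsf9 and Tnfrsf13b) 1 cell held over 50% of the counts of the Il23a cluster. In this pair 15 of the 48 pathway genes were higher and 2 lower, with Adam17, Traf1 and Tnfaip3 among the higher ones. Several marker lists of other cell types were also higher in the Il23a cluster. Cardiomyocyte markers summed to 255 CPM in the Il23a cluster, against 173 CPM in the Retnlg cluster, B cell markers to 206 CPM, against 95.2 CPM, and fibroblast markers to 454 CPM, against 252 CPM. Monocyte markers summed to 4647 CPM in the Il23a cluster, against 2500.4 CPM in the Retnlg cluster, endothelial markers to 61.1 CPM, against 30.3 CPM, and markers of dividing cells to 70.7 CPM, of which 1 cell held 72.3%, against 1.12 CPM. Their part in the members' levels was not tested.

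Among monocyte-like cells, the 79 with Cd300e, Ace and Treml4 among their leading genes, genes of patrolling monocytes, were set against the 94 with Chil3 and Ly6c2, genes of classical monocytes. Of the members 3 were higher, against 14.7% of all genes, and 6 were lower, against 11.5%. Tnfrsf1b stood at 278 CPM in the Ace cluster (267 to 289), against 106 CPM in the Chil3 cluster (102 to 111), a ratio of 2.61 (2.46 to 2.76). Tnfrsf1a differed little, with 279 CPM, against 269 CPM, and a ratio of 1.04 (0.989 to 1.09). Ltb had 17.6 CPM, against 1.65 CPM. Tnfsf14 ran the other way, with 11.1 CPM in the Ace cluster (8.99 to 13.5), against 58.5 CPM in the Chil3 cluster (55.3 to 61.8), and Tnfrsf11a had 0.968 CPM, against 10.3 CPM. The monocyte-like level of Tnfsf14 thus came from the Chil3 cluster. Endothelial markers summed to 396 CPM in the Ace cluster, against 38.8 CPM in the Chil3 cluster. The pathway list had 15 genes higher and 2 lower here.

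**Figure D4:**
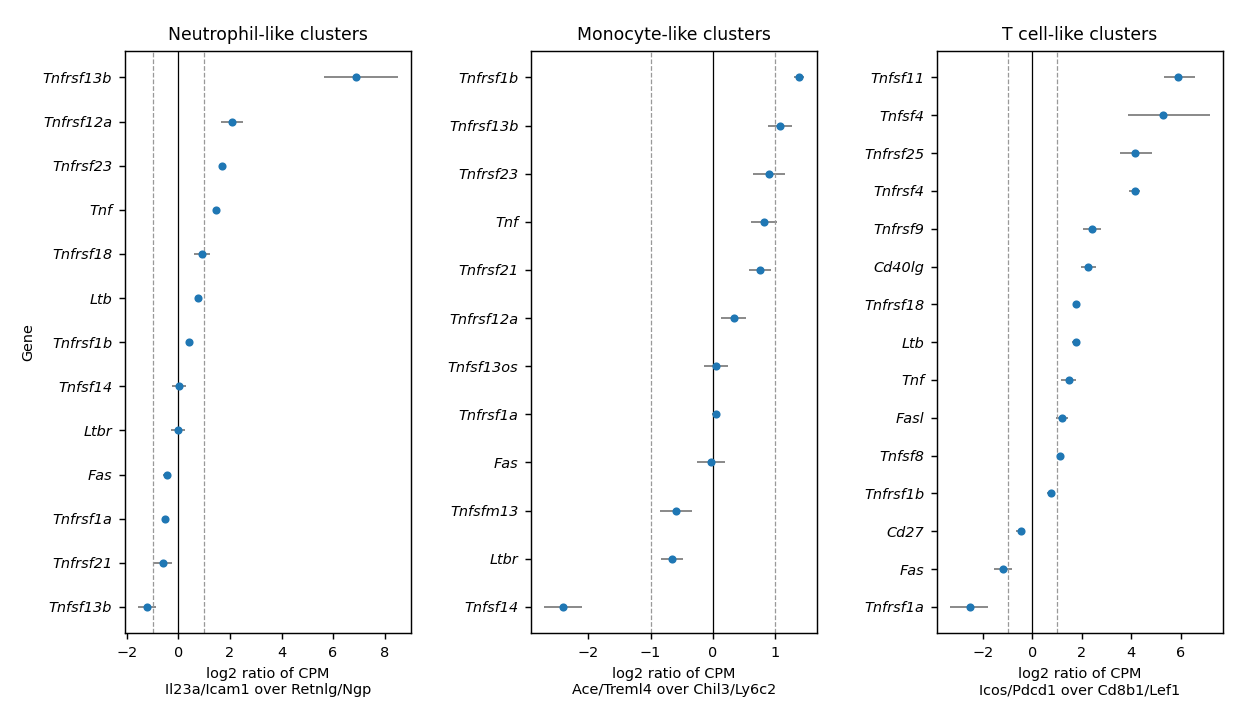
Log2 ratio of CPM between 2 clusters of the same class, for members with at least 20 CPM in either: Il23a/Icam1 over Retnlg/Ngp neutrophil-like cells (left), Ace/Treml4 over Chil3/Ly6c2 monocyte-like cells (middle) and Icos/Pdcd1 over Cd8b1/Lef1 T cell-like cells (right). Bars are exact 95% intervals of counting error, and dashed lines mark ratios of 2 in either direction. Tnf and Tnfrsf23 lie right of the line among neutrophil-like cells, Tnfrsf1b right and Tnfsf14 left of it among monocyte-like cells, and most T cell-like members lie to the right.

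The largest number of differing members was found among T cell-like cells. In the finer clustering, at Leiden resolution 1.5, the 27 cells led by Thy1, Pdcd1 and Icos, the last 2 of them genes of activated T cells, were set against the 75 with Cd8b1 and Lef1 among their leading genes. Of the members 18 were higher, against 14.1% of all genes, and 5 were lower, against 17.0%. For 8 of the 18 (Cd70, Tnfsf15, Tnfsf4, Tnfrsf22, Tnfsf9, Tnfrsf10b, Tnfsf10 and Lta) 1 cell held over 50% of the counts of the Icos cluster. Tnfsf11 stood at 199 CPM in the Icos cluster (184 to 214), against 3.32 CPM in the Cd8b1 cluster (2.10 to 4.98), a ratio of 60.0 (39.6 to 95.3). Tnfrsf18 had 583 CPM, against 173 CPM (ratio 3.38), Cd40lg had 96.6 CPM, against 20.04 CPM (ratio 4.82), and Tnfrsf25 had 61.9 CPM, against 3.46 CPM (ratio 17.9). In the Icos cluster single cells held 33.0% of the Tnfsf11, 40.7% of the Cd40lg and 36.4% of the Tnfrsf25 counts. In the Cd8b1 cluster single cells held 95.7%, 85.6% and 75% of the counts of these genes, so their ratios rest on few cells. Tnfrsf4 had 487 CPM, against 27.5 CPM, and a single cell held 45.6% of the counts in the Icos cluster. At equal depth 51.9% of the Icos cluster and 9.33% of the Cd8b1 cluster had a Tnfrsf4 count. Ligands summed to 1065 CPM in the Icos cluster, against 306 CPM in the Cd8b1 cluster, and receptors to 1531 CPM, against 584 CPM. Cd27, Fas and Tnfrsf1a ran the other way, with 92.5 CPM, against 128 CPM, 23.1 CPM, against 52.1 CPM, and 4.92 CPM, against 28.1 CPM. The cluster pair divides the class largely by activation and CD8 genes, and markers of type 2 innate lymphoid cells summed to 817 CPM in the Icos cluster, against 109.5 CPM in the Cd8b1 cluster. Their part in the Icos cluster's levels was not tested.

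Regulatory T cells are known for GITR and OX40, and Foxp3, their defining gene, was found in 7 of the 102 T cell-like cells. Of these 7, 6 had Tnfrsf18, 1 had Tnfrsf4 and 0 had Tnfrsf9. Of the 23 cells with Tnfrsf4, 15 had Cd4, 17 had Tnfrsf18 and 1 had Foxp3. Carriers of Tnfrsf4 were thus mostly cells in which no Foxp3 count was found at this depth. Among the 15 cells with Cd40lg, 8 had Cd4 and 2 had Cd8b1, against 37 and 37 of the 87 cells without Cd40lg.

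Some ligands and their receptors were highest in different classes and others in the same class. Tnfsf9 led in conventional dendritic-like cells and its receptor Tnfrsf9, over all tag names, in NK cell-like cells. Tnfsf4 led in conventional dendritic-like cells and Tnfrsf4 in T cell-like cells, and Cd40lg led in T cell-like cells and Cd40 in conventional dendritic-like cells. Tnfsf13b led in neutrophil-like cells and Tnfrsf13c in B cell-like cells, and Tnfsf11 led in T cell-like cells and Tnfrsf11a in macrophage-like cells. With counts summed over a class, Tnfsf14 and its receptor Ltbr both led in monocyte-like cells, with macrophage-like cells next and overlapping intervals. With each cell weighted alike both led in macrophage-like cells. Ltbr also led there among cells named A951, whereas Tnfsf14 led in neutrophil-like cells among those named A965. For Tnf both receptors were, like the ligand, highest in neutrophil-like cells over all tag names. Whether cells that carry a ligand met cells that carry its receptor was not measured in these files.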

How the data were processed

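Per the labels, pooled sorted heart cells were run on BD Rhapsody and libraries made by TAS-Seq. The submitters' processing notes name cutadapt 4.1, STARsolo 2.7.10b, STAR, R 4.3.1 and GRCm39. The values of the transcriptome, as the authors deposited them, are estimated counts for each gene in each cell without normalization, and 69.8% of those above 0 were whole (within 1e-06). The tag values, as the authors deposited them, are whole counts for each barcode. The tag with most counts was the one in the cell's name in 490 of 826 cells with a tag name. These were 331 of 331 cells named A951, 128 of 134 named A952, 14 of 114 named A953 and 17 of 247 named A965. Names were used as given, and values by name, above all for A953 and A965, describe cells only.

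Cells needed 500 counts or more, 200 genes or more and a mitochondrial share of 25% or less. Cells named doublet stayed in (46 kept), and leaving them out was an alternative. Counts were scaled to 10000 per cell and log-transformed, and 2000 variable genes without the members and pathway genes, 30 components, 15 neighbours and Leiden resolution 1 with seed 0 gave the clusters (scanpy 1.11.5, Python 3.11.15). A cluster took a cell type's name when at least 3 of its markers reached 50 CPM and 2 times the level of other cells. Clusters under 25 cells stayed unnamed, a rule added after the data were seen, and names may differ from those of the study. Counts were summed over a class and given as CPM with exact Poisson intervals. Ratios and shares have exact Clopper-Pearson intervals (scipy 1.17.1), all at 95%. Members were named at 20 CPM and 5 cells above 0 in a class of 25 cells or more. Genes with at least 50 counts, 18243 in all, formed the background. The calculation of ratios and intervals was checked on counts simulated with Poisson error at known ratios. The simulated counts had no variation between cells, so that check covers the calculation only and not the error in these data. No gene test across replicates was possible with 1 library. The members and lists were chosen with earlier results of these data known.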

Additional observations from a re-analysis of the deposited data

How the results depend on the processing

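The 28 ratios of named members to all other cells were recomputed under 11 alternatives. None changed direction except that of Tnfrsf12a in conventional dendritic-like cells, which had a log2 ratio of -0.074 among cells named A965. With each cell weighted alike 6 ratios changed by over 1.5 times, among cells named A951 10 of 26, and among those named A965 9 of 28. At resolution 0.5 such a change was found for 3 ratios, without the cell with most counts for 1, and with 20 CPM added for 19. Under the other alternatives no ratio changed that much. The counting intervals do not cover such changes. Ratios no longer at 2 were those of Tnfrsf13b without the cell with most counts, Ltbr and Tnfrsf13b among cells named A951, Tnfrsf1b among cells named A965, and Ltbr, Tnfrsf13b, Tnfrsf21, Tnfsf13b, Tnfsf13os, Tnfsf14 and Tnfsfm13 with 20 CPM added. Under 8 other groupings of the cells, 16 of the 28 kept their leading class, and 9 had another among cells named A965 and 5 among cells named A951. At resolution 0.5 no macrophage-like class was found, so Tnfrsf11a could not keep its leading class there.

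The log2 ratio of summed ligands in T cell-like cells, 1.17, was 1.24 without cells named doublet, 0.83 with each cell weighted alike, 1.04 without the cell with most counts, 0.84 and 1.22 among cells named A951 and A965, and 1.12 with 20 CPM added. That of summed receptors in neutrophil-like cells, 0.65, was 0.69 at a mitochondrial limit of 10%, 0.72 with cells weighted alike, and 0.69 and 0.32 among cells named A951 and A965. With 20 CPM added, the members at 2 times or more were 5 in neutrophil-like, 0 in monocyte-like, 1 in macrophage-like, 4 in conventional dendritic-like, 1 in B cell-like, 8 in T cell-like and 3 in NK cell-like cells, since that addition shrinks the ratios of genes with low levels. Without the cell with most counts they were 4 in conventional dendritic-like, 3 in B cell-like and 3 in NK cell-like cells. Macrophage-like cells had 7 with cells weighted alike, 4 among cells named A965 and 1 at a minimum of 200 counts. Conventional dendritic-like cells had 3 among cells named A951 and 4 at a minimum of 200 counts, and T cell-like cells had 10 among cells named A965. The causes of these changes were not tested, beyond that of the addition. No paired analysis was possible because the series holds 1 transcriptome library. Class levels rest on 27 to 265 cells, and where a single cell holds much of the counts, the counting interval understates the error.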
